A study of Homo sapiens with 2 samples.

Results

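In all, 10 genes that form 5 opposite-strand pairs were followed in U2AF2 eCLIP libraries of HEL cells: PAQR3 and BMP2K, AL135999.1 and AP1G2, LENG9 and LENG8, LRRC24 and LRRC14, and KANSL1L and RPE. They were 10 of the 58347 genes in the deposited count table, matched by Ensembl identifier to GENCODE 29, and all 10 were found. The pairs were chosen for their high counts in these same libraries, so their levels and the side that held the reads are given as a description. HEL is a human erythroleukemia cell line, and U2AF2 is the larger protein of the U2AF splicing factor. In eCLIP, RNA is fixed to a protein by ultraviolet light (400 mJ/cm2 here), recovered with an antibody and sequenced. The cells were untreated, and the 2 biological replicates make up 1 group. No input or control library was analysed here, so no value is an enrichment over input.

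U2AF2 binds the polypyrimidine tract, a run of C and T (U in RNA) just upstream of the AG that ends an intron, and helps to recruit the U2 snRNP to the 3′ splice site. The binding is to nascent RNA, so introns as well as exons of a transcribed gene can be crosslinked. Where genes on opposite strands share the same bases, a stranded count gives a read to one or the other by the strand it takes as the gene's own. The sources used here do not give the strand setting of this count, and for each pair it is uncertain which gene's RNA the reads came from. Position within a gene is also unknown, because the table holds 1 number per gene and library.

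Gene counts summed to 995428 in replicate 1 and 1350116 in replicate 2, which were 2.66% and 2.60% of uniquely mapped reads. Reads tallied as ambiguous, the class for reads on exons of more than 1 gene, numbered 17816 and 23938. Of erythroid markers, GATA1 held 6 and 14 counts, TAL1 22 and 28, HBG2 7 and 8, KLF1 0 and 4 and HBG1 0 and 1. Of megakaryocyte markers, ITGA2B held 0 and 2, GP9 0 and 1, and PF4 was at 0 in both. T cell, B cell and hepatocyte markers (2 genes each) summed to between 0 and 14 counts in a library, with CD3D and ALB at 0 in both. These counts are subject to the same uncertainty of strand, and their bearing on the identity of the cells was not tested.

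The annotated 3′ splice sites whose last intron base falls inside an exon of the gene on the other strand are described first. The bases upstream of it can lie partly outside that exon, and U2AF2 binding at these sites was not measured. Each line gives 18 intron bases, the last 2 intron bases in capitals and the first 3 exon bases, read 5′ to 3′ on the strand of the gene named. The bases were read from GENCODE 29 transcripts (GRCh38) by their exon positions. Of the 16 annotated 3′ splice sites of BMP2K, 1 lay in a PAQR3 exon, and 3 of 8 BMP2K transcripts use it. Conversely, 2 of the 16 sites of PAQR3 lay in a BMP2K exon.
BMP2K, chr4:78887154-78887176, plus strand: gtttcatcttatttttgcAGata
PAQR3, chr4:78915368-78915390, minus strand: acacttgtaccttctaacAGtgc
PAQR3, chr4:78912061-78912083, minus strand: ttcacacttttttgaaacAGgag

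Of the 18 bases before the AG, 14 were pyrimidines in the BMP2K site and 12 in each PAQR3 site. In the BMP2K site 11 of them were T, and in the PAQR3 sites 6 and 8, in the order listed.

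AP1G2 had the most such sites: 10 of its 26 annotated 3′ splice sites lay in exons of AL135999.1, and all 3 sites of AL135999.1 lay in exons of AP1G2. The 5 AP1G2 sites used by the most transcripts and the 3 AL135999.1 sites were as follows.
AP1G2, chr14:23566417-23566439, minus strand: cgtcctcccaaaccctgcAGtga
AP1G2, chr14:23566158-23566180, minus strand: gaggcccctgacctctgcAGgct
AP1G2, chr14:23567317-23567339, minus strand: ccactcccggactctgccAGtca
AP1G2, chr14:23565699-23565721, minus strand: aagttgtgccctccctccAGgtg
AP1G2, chr14:23561429-23561451, minus strand: ccttctgtcccttctgccAGgcc
AL135999.1, chr14:23564707-23564729, plus strand: gtctcctttttttgatacAGggt
AL135999.1, chr14:23565436-23565458, plus strand: cattccctctcccctcacAGgtc
AL135999.1, chr14:23567669-23567691, plus strand: tcccccgatttccatctcAGgca

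Pyrimidines made up 10 to 16 of the 18 bases in the 10 AP1G2 sites inside AL135999.1 exons, with a median of 13. The 13 other AP1G2 sites that could be read ranged from 8 to 16, also with a median of 13. AL135999.1 had 14 to 16 pyrimidines at its own 3 sites. Pyrimidines were thus the majority in each of these 10 AP1G2 and 3 AL135999.1 sites. T made up 0 to 7 of the 18 bases in the 10 AP1G2 sites, where C outnumbered T in each, and 5 to 10 in the AL135999.1 sites.

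LENG9, a single-exon gene, has no splice site of its own. Of the 18 annotated sites of LENG8, 1 lay in the LENG9 exon. It belongs to 1 of 9 LENG8 transcripts and does not end in AG.
LENG8, chr19:54461783-54461805, plus strand: cctctcccttttctttttGGccc

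Every one of the 18 bases before that GG was a pyrimidine. The window starts at 54461783 and LENG9 at 54461796, so part of those bases lies outside the LENG9 exon. On chromosome 8, 1 of the 9 sites of LRRC14 lay in an LRRC24 exon and all 5 sites of LRRC24 lay in LRRC14 exons. Between KANSL1L and RPE no 3′ splice site of either gene lay in an exon of the other.

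PAQR3 encodes a membrane protein of the Golgi, and BMP2K encodes a kinase of the NAK family, which phosphorylates clathrin adaptors and has been linked to erythroid maturation. The reads lay almost wholly on the PAQR3 side. PAQR3 held 2742 counts in replicate 1 and 3644 in replicate 2, and BMP2K held 63 and 78. The ranges of the 2 genes did not overlap. PAQR3 took 97.8% of the pair's counts in replicate 1 (exact Clopper-Pearson 95% interval 97.1 to 98.3) and 97.9% in replicate 2 (97.4 to 98.3). As counts per 1e+06 scaled gene counts (CPM), PAQR3 averaged 2727 ± 9.67 and BMP2K 60.5 ± 2.81 (SD, n = 2). These intervals, and all others here, cover counting error only.

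PAQR3 (ENSG00000163291.14) lies on the minus strand of chromosome 4 at 78887127 to 78939438 and BMP2K (ENSG00000138756.17) on the plus strand at 78776342 to 78916372 (GRCh38). The genes run tail to tail, so that their 3′ ends lie within each other, over 29246 bases. Exon faced exon over 5646 bases, which was 45.5% of the merged exon bases of PAQR3 and 56.8% of those of BMP2K. None of the 5646 bases was coding in PAQR3, while 1304 of them were coding in BMP2K. A further 214 PAQR3 exon bases lay over BMP2K introns, and 6543 lay outside the BMP2K gene. The larger part of the PAQR3 exons thus had no BMP2K sequence opposite.

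AP1G2 encodes a gamma subunit of the AP-1 clathrin adaptor, which sorts cargo between the trans-Golgi network and endosomes. AL135999.1 is an antisense RNA gene across it. The non-coding gene held the larger count, 5409 in replicate 1 and 7503 in replicate 2, and AP1G2 held 1297 and 1643. AL135999.1 had 80.7% of the pair's counts in replicate 1 (exact 95% interval 79.7 to 81.6) and 82.0% in replicate 2 (81.2 to 82.8). AL135999.1 averaged 5497 ± 186 CPM and ranked 1 of all genes in the table. AP1G2 averaged 1259 ± 38.2 CPM (SD, n = 2) and ranked 78, so here both sides held many reads.

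AL135999.1 (ENSG00000258727.1, chromosome 14, 23561097 to 23568073, plus strand) lay within AP1G2 (ENSG00000213983.11, 23559565 to 23568070, minus strand) except for its last 3 bases. Both genes start inside the other, which makes the arrangement head to head. Of its 3243 exon bases, 2700 (83.3%) faced AP1G2 exons and 540 (16.7%) faced AP1G2 introns. AP1G2 exons faced AL135999.1 exons over 39.1% and its introns over 49.2% of their length, and 1001 of the shared bases were coding in AP1G2. The AP1G2 exons, merged over 34 transcripts, cover 6897 of the 8506 bases of the gene.

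Other genes touched AP1G2 exons with far fewer reads than AL135999.1. ZFHX2-AS1, on the opposite strand over 801 AP1G2 exon bases, held 181 and 250 counts. THTPA, the thiamine triphosphatase gene, lay opposite 620 AP1G2 exon bases and held 13 and 14. JPH4, a junctophilin gene on the AP1G2 strand, shared 36 AP1G2 exon bases, faced 39 bases of AL135999.1 and held 25 and 31.

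LENG8 and LENG9 are named for their place in the leukocyte receptor cluster of chromosome 19. LENG9 held 2014 counts in replicate 1 and 2458 in replicate 2, against 104 and 94 in LENG8. LENG9 accounted for 95.1% of the pair's counts in replicate 1 (exact 95% interval 94.1 to 96.0) and 96.3% in replicate 2 (95.5 to 97.0). The levels were 1921 ± 109 CPM for LENG9 and 86.8 ± 23.1 CPM for LENG8 (SD, n = 2). LENG8 was thus at a few percent of its neighbour in both libraries.

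The overlap of this pair was the shortest of the 5. LENG9 (ENSG00000275183.1, 54461796 to 54463711, minus strand) and LENG8 (ENSG00000167615.16, 54448887 to 54462037, plus strand) met tail to tail over 242 bases, all exonic in both. That was 12.6% of the LENG9 exon and 3.74% of the LENG8 exons, and 27 of these bases were coding in LENG8 and 0 in LENG9. The remaining 1674 bases of LENG9 had no annotated exon of any other gene on them. LENG8 also faced LENG8-AS1, an antisense RNA gene, over 159 exon bases, and LENG8-AS1 held 20 and 23 counts.

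LRRC24 and LRRC14 encode leucine-rich repeat proteins. LRRC24 held 2017 and 2604 counts, and LRRC14 held 406 and 569. LRRC24 took 83.2% in replicate 1 (exact 95% interval 81.7 to 84.7) and 82.1% in replicate 2 (80.7 to 83.4). Mean levels were 1977 ± 33.5 CPM for LRRC24 and 415 ± 17.0 CPM for LRRC14 (SD, n = 2). As at AP1G2, the minor side was well above the floor set by a count of 0, which allowed up to 2.98 CPM in replicate 1 and 2.25 CPM in replicate 2.

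LRRC24 (ENSG00000254402.6, chromosome 8, 144522377 to 144527032, minus strand) ran tail to tail with LRRC14 (ENSG00000160959.7, 144517992 to 144525178, plus strand) over 2802 bases. Exons of LRRC14 lay opposite 1699 of the 1772 LRRC24 exon bases (95.9%). The whole coding sequence of LRRC24, 1539 bases, was in this overlap, and none of the overlap was coding in LRRC14. The other 73 exon bases of LRRC24 were shared with C8orf82, a gene on the same strand with 133 and 152 counts. LRRC24 therefore had 0 exon bases free of another annotated exon. Reads tallied as ambiguous numbered 17816 and 23938 for the whole table, and the number on LRRC24 is not known. The counting step and its strand setting are not given. Which strand a strand-aware count would have read was not tested.

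RPE encodes ribulose-phosphate 3-epimerase of the pentose phosphate pathway, and KANSL1L is a paralogue of KANSL1, a subunit of the NSL histone acetyltransferase complex. KANSL1L held 1738 counts in replicate 1 and 2712 in replicate 2, and RPE held 1 and 3. The share of KANSL1L was 99.9% in both libraries (exact 95% interval 99.7 to 100.0 in each). The ratio of KANSL1L to RPE counts was 1738 in replicate 1, with an exact 95% interval of 312 to 68686, and 904 in replicate 2, with one of 309 to 4386. RPE was at or under the floor in both libraries, and KANSL1L averaged 1879 ± 219.5 CPM (SD, n = 2).

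KANSL1L (ENSG00000144445.16, chromosome 2, 210021423 to 210171383, minus strand) met RPE (ENSG00000197713.14, 210002565 to 210022259, plus strand) tail to tail over 837 bases. All 837 were exonic and non-coding in both genes. They made up 9.86% of the KANSL1L exon bases and 23.8% of those of RPE. The other 7654 KANSL1L exon bases lay outside RPE. Exons of AC007038.1, an antisense gene with 8 and 12 counts, faced 87 KANSL1L exon bases, and those of AC007038.2, another with 8 and 11 counts, faced 125. Of KANSL1L exon bases, 87.6% carried no exon of any other annotated gene.

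**Figure D1:**
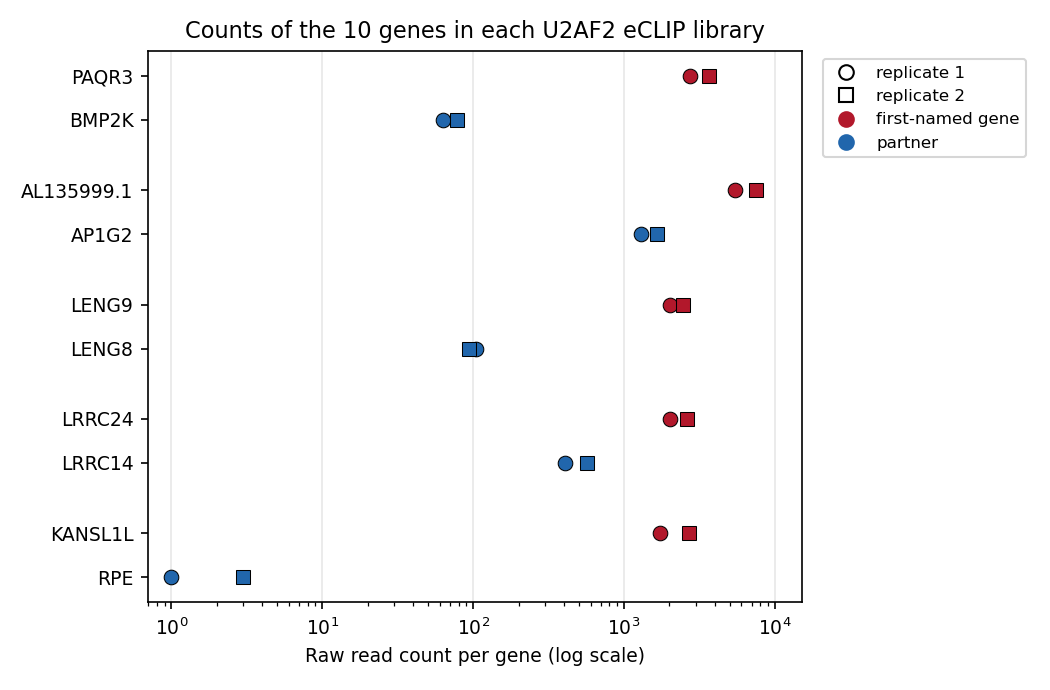
Raw read counts of the 10 genes (x axis, log scale) in replicate 1 (circles) and replicate 2 (squares), with the first-named gene of each pair in red above its partner in blue. In every pair both red points lie to the right of both blue points, from 5409 and 7503 against 1297 and 1643 for AL135999.1 and AP1G2 to 1738 and 2712 against 1 and 3 for KANSL1L and RPE.

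**Figure D2:**
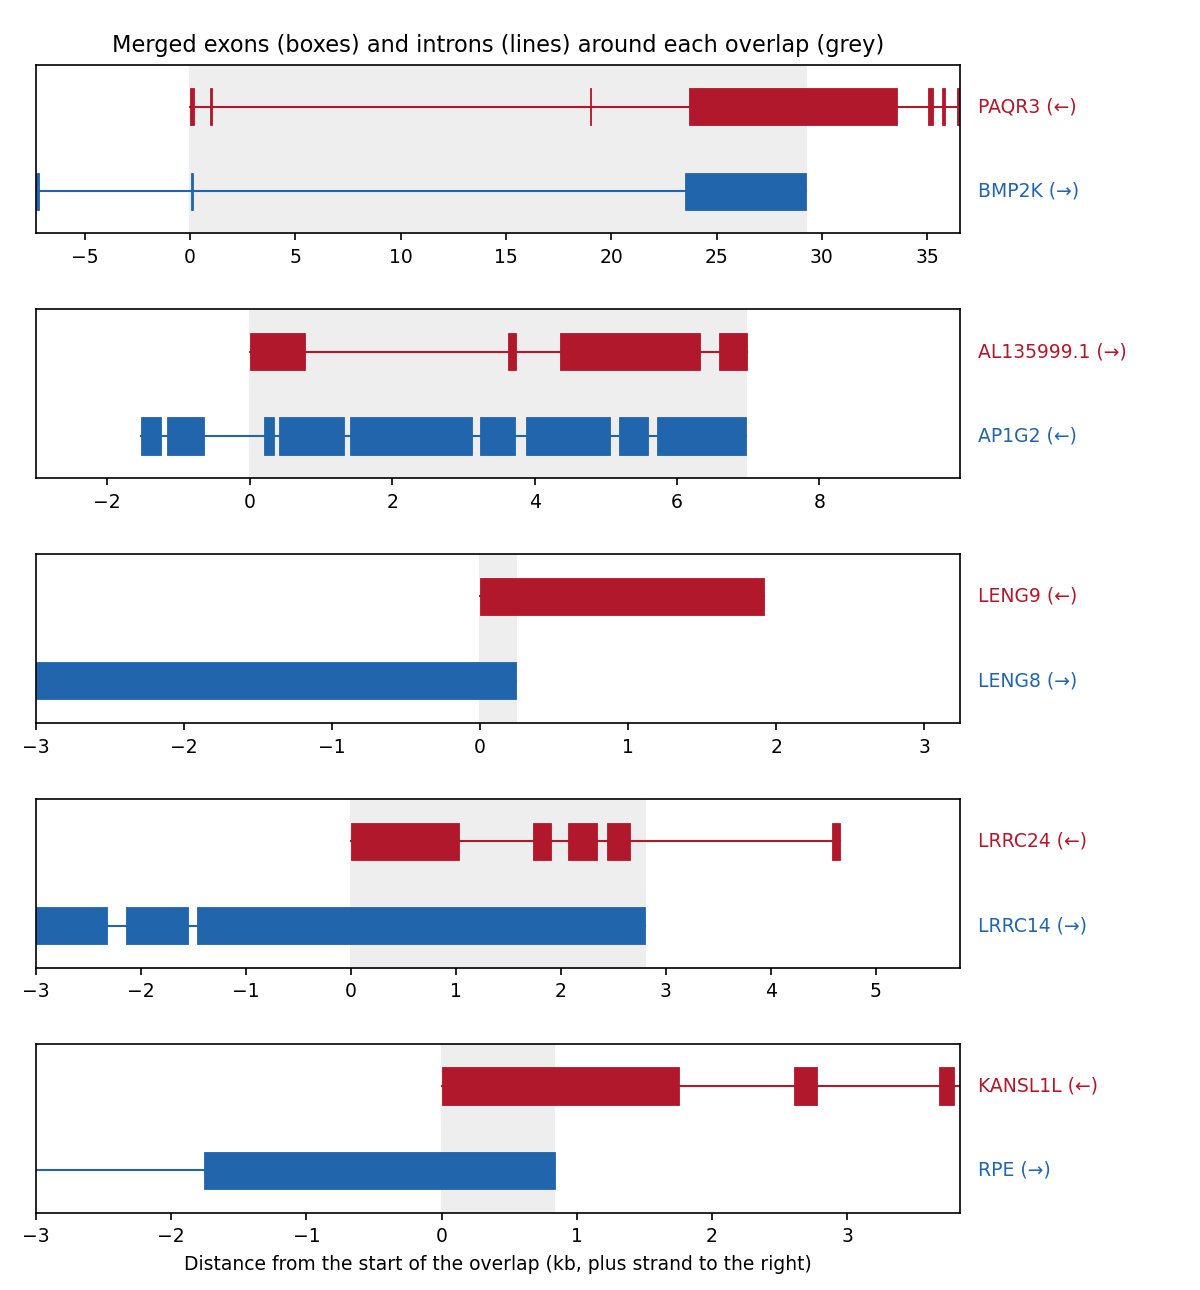
Merged exons (boxes) and introns (lines) of each pair, drawn to scale in kb from the start of the overlap, which is shaded; the arrow after each name gives the direction of transcription and genes that reach a panel edge continue beyond it. The overlap is 29246 bases long for PAQR3 and BMP2K and 242 bases for LENG9 and LENG8.

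The 5 pairs, each listed with the gene of more reads first, differed in geometry. That gene was on the plus strand for AL135999.1 and on the minus strand in the 4 other pairs, which ran tail to tail. The share of its exon bases over partner exons ran from 9.86% in KANSL1L to 95.9% in LRRC24. The 2 pairs with the highest such shares, LRRC24 with LRRC14 and AL135999.1 with AP1G2, had the lowest shares of reads on the first gene, 82.7% ± 0.832 and 81.3% ± 0.974 (SD, n = 2). The 3 others were at 95.7% ± 0.868 for LENG9, 97.8% ± 0.106 for PAQR3 and 99.9% ± 0.0375 for KANSL1L. Among 5 pairs chosen for their counts this order is a description.

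**Figure D3:**
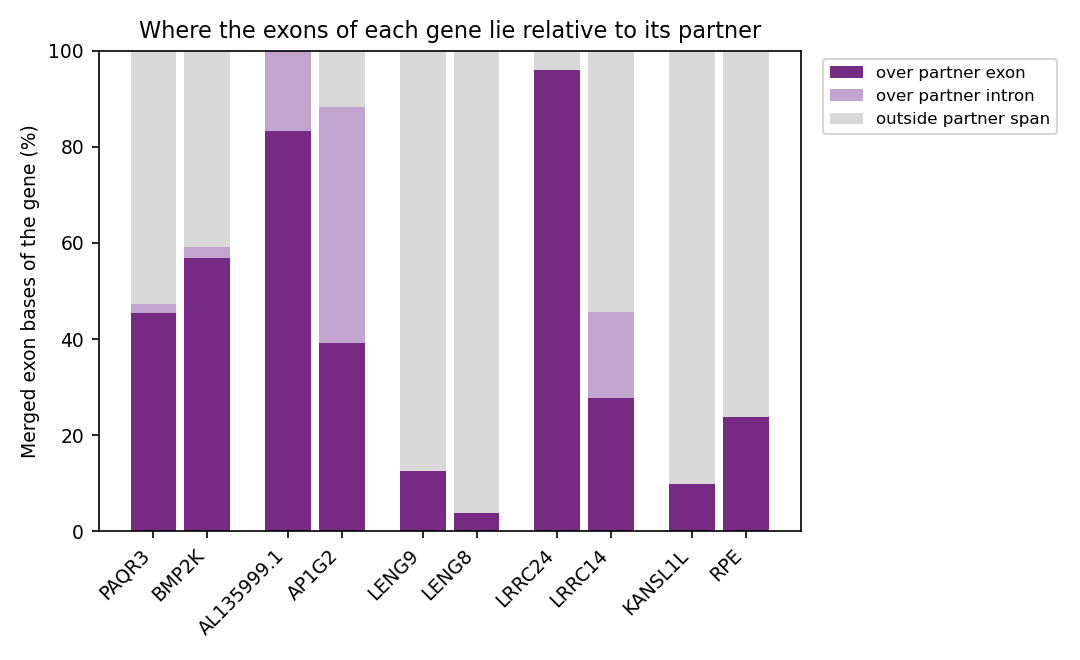
Merged exon bases of each gene (y axis, percent) that lie over exons of its partner, over introns of its partner or outside the partner's span, with the first-named gene left of its partner. LRRC24 (95.9%) and AL135999.1 (83.3%) are mostly opposite exons, whereas KANSL1L (9.86%) and LENG9 (12.6%) are mostly outside.

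Counts per kb of merged exon, which take annotated exon length into account, kept the first-named gene ahead in each pair. Whether reads spread evenly over the merged exons could not be tested, because position within a gene is unknown. Differences between genes on this scale are therefore a description. AL135999.1 held 1668 counts per kb in replicate 1 and 2314 in replicate 2, LRRC24 1138 and 1469.5, and LENG9 1051 and 1283. KANSL1L held 205 and 319 per kb, PAQR3 221 and 294, and AP1G2 188 and 238. PAQR3 was ahead of KANSL1L in replicate 1 and behind it in replicate 2, and both were above AP1G2 in each library. LRRC14 followed with 66.2 and 92.7, LENG8 with 16.1 and 14.5, BMP2K with 6.34 and 7.85 and RPE with 0.284 and 0.852. Because LENG9 and LRRC24 are short, their lead over the partner was wider on this scale: LENG9 exceeded LENG8 by 65.4 and 88.3 times and LRRC24 exceeded LRRC14 by 17.2 and 15.8 times. On the raw counts these ratios were 19.4 and 26.1, and 4.97 and 4.58.

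By CPM, the order was AL135999.1, PAQR3, LRRC24, LENG9, KANSL1L, AP1G2, LRRC14, LENG8, BMP2K and RPE. LRRC24 (2001 and 1953 CPM), LENG9 (1998 and 1844) and KANSL1L (1724 and 2034) overlapped in range, and no other neighbours in the order did. PAQR3 ranked 16, LRRC24 31, LENG9 34 and KANSL1L 36 among all genes by CPM. By counts per kb of merged exon, PAQR3 ranked 526, LRRC24 46, LENG9 60, KANSL1L 514 and AL135999.1 26. The genes next to PAQR3, LRRC24, LENG9 and KANSL1L in CPM also had genes on the other strand. AL135960.1, just above PAQR3 with 2841 ± 146 CPM, lies opposite TAL1, and ABALON, just below with 2601 ± 77.8 CPM, lies opposite BCL2L1 (SD, n = 2). TTI2 above LENG9 lies opposite MAK16 and SNORD13. ZNF276, between LENG9 and KANSL1L, and FANCA, just below KANSL1L, lie opposite each other, and ZNF276 also faces VPS9D1. AC092384.2 above LRRC24 faces CBFA2T3, and AC022400.8 below it faces FUT11 and SEC24C. Just below AL135999.1, at 5352 ± 419 CPM (SD, n = 2), was ENSG00000259279.1, an identifier that GENCODE 29 does not hold.

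The 5 pairs were then set beside all opposite-strand pairs whose exons share at least 1 base. The annotation gave 7376 such pairs with both genes in the table, and 5065 held at least 10 counts in each library. By summed level, AL135999.1 with AP1G2 ranked 1 of the 7376, PAQR3 with BMP2K 37, LRRC24 with LRRC14 45, LENG9 with LENG8 64 and KANSL1L with RPE 72. In 3 of the 5, 1 gene held at least 90% of the counts in both libraries, and so it did in 51.3% of the 5065 pairs. Over all of them the gene with more counts held a median of 92.3%. A one-sided pair was therefore common in this table, and nothing is read from the count of 3. Since the pairs were chosen on these counts, the comparison was not tested.

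**Figure D4:**
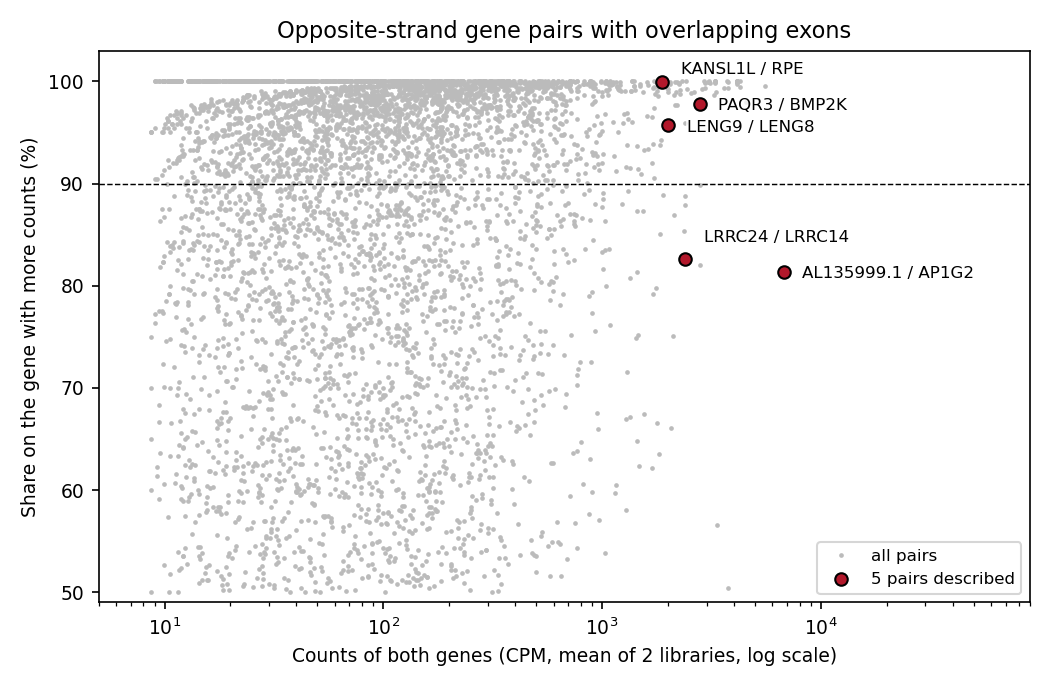
Share of the pair's counts on the gene with more counts (y axis, percent, mean of 2 libraries) against the summed level of the pair (x axis, CPM, log scale) for 5065 opposite-strand pairs in grey and the 5 pairs described in red; the dashed line is at 90%. The red points lie at the right, 3 above the line and 2 below it.

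Arrangement and splice sites were compared in the same way. Of tail-to-tail pairs, 48.7% of 1638 were one-sided at 90%, of head-to-head pairs 47.2% of 1450 and of nested pairs 56.5% of 1977. PAQR3, LENG9 and KANSL1L were one-sided among the 4 tail-to-tail pairs described, and LRRC24 was not. The exon overlap had a median of 246 bases over all pairs, so that PAQR3 with BMP2K (5646), AL135999.1 with AP1G2 (2700), LRRC24 with LRRC14 (1699) and KANSL1L with RPE (837) were above it and LENG9 with LENG8 (242) just below it. Where 1 gene held more of the other's 3′ splice sites in its exons, that gene also had more reads in 1297 of 2411 pairs (53.8%). It did so for AL135999.1, with 10 AP1G2 sites against 3 the other way, and for LENG9, with 1 against 0. It did not for PAQR3, with 1 against 2, or for LRRC24, with 1 against 5, and KANSL1L and RPE had 0 each. The LENG8 site counted for LENG9 belongs to 1 of 9 LENG8 transcripts and ends in GG. Part of the 18 bases before that GG lies outside the LENG9 exon.

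Per kb of exon, the median count rose with the number of a partner's 3′ splice sites in a gene's exons. The median over both libraries was 14.9 counts per kb for 6036 genes with 0 such sites, 24.4 for 3539 with 1 or 2, 50.1 for 467 with 3 to 5 and 90.7 for 88 with 6 or more. The median share of the pair's counts was 47.4%, 52.6%, 70.2% and 66.8% in the same order, so it was lower with 6 or more sites than with 3 to 5. Overlap length and gene level were not taken into account, and the cause was not tested. A gene with several partners entered once for each. AL135999.1, with 10 sites, and KANSL1L, with 0, were far above the medians of their classes. Both were in pairs chosen for high counts in these libraries, so nothing is read from this. These medians are a description across genes, which are not independent replicates.

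Agreement of the replicates was not used to choose the pairs and could be tested. Each gene with at least 10 counts in both libraries was compared between them by an exact two-sided binomial test with Benjamini-Hochberg adjustment over 8983 genes. Of the 9 members that passed this filter (RPE did not), 1 differed, against 0.501% of all genes tested. By direction, 1 member was higher in replicate 2, against 0.390% of all genes, and 0 were higher in replicate 1, against 0.111%. KANSL1L was higher in replicate 2, at 2034 CPM against 1724 CPM in replicate 1, a ratio of 1.18 (exact test, adjusted p = 3.60e-05). Among the 112 genes of at least 1000 CPM, 19 (17.0%) differed. The other 8 did not pass. Their ratios of replicate 2 to replicate 1 ran from 0.684 for LENG8 (exact test, adjusted p = 0.326) to 1.06 for LRRC14 (adjusted p = 0.929). AL135999.1 had a ratio of 1.05 (exact test, adjusted p = 0.316), and PAQR3 one of 1.01 (adjusted p = 1.00). The test compares 2 libraries of 1 group against counting error alone. The spread between separate samples cannot be estimated from them, and PCR duplicates left in the counts would make its p-values too small, so the call for KANSL1L is a difference between these libraries only.

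**Figure D5:**
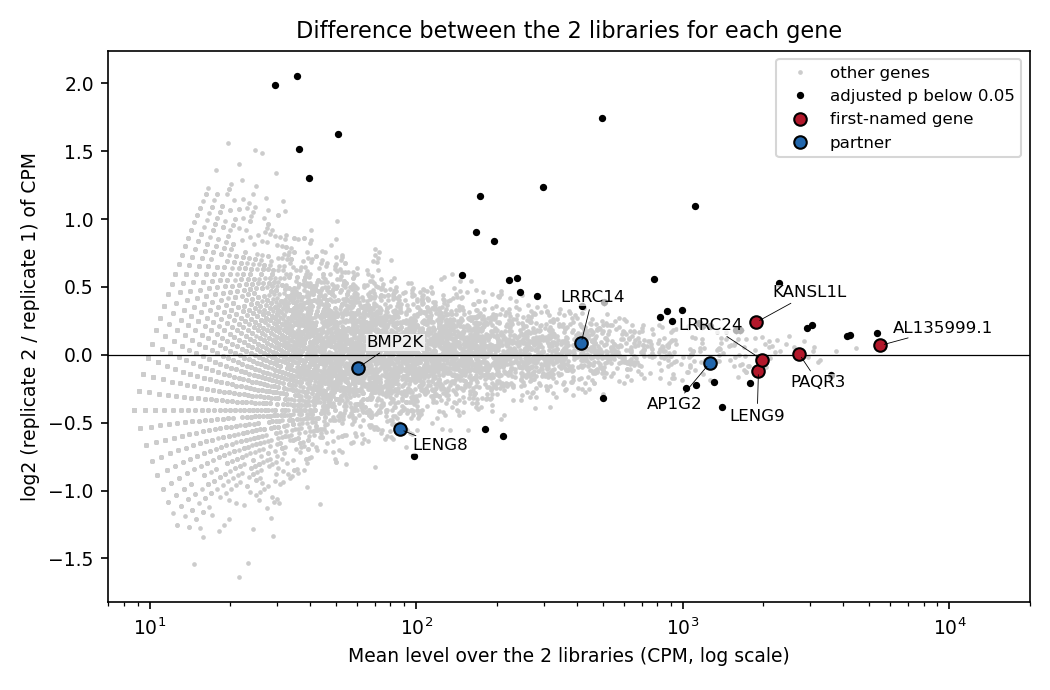
Log2 ratio of replicate 2 to replicate 1 in CPM (y axis) against mean CPM (x axis, log scale) for 8983 genes, with genes of adjusted p below 0.05 in black and the 9 members that passed the count filter in red (first-named gene) or blue (partner). KANSL1L lies at 0.24 and LENG8 at -0.55, and of the coloured genes only KANSL1L passed the threshold.

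The split of reads within a pair was compared between the libraries by Fisher's exact test, two-sided, adjusted over the 5065 pairs. None of the 5 pairs passed (adjusted p = 1.00 in each), and 0.0592% of all pairs, 3 in number, did. At an unadjusted p below 0.05 there were 2, AL135999.1 with AP1G2 (exact p = 0.0284), at 80.7% and 82.0%, and LENG9 with LENG8 (exact p = 0.0411), at 95.1% and 96.3%. Over all pairs 223 of 5065 were below 0.05 unadjusted. These 2 pairs ranked 1 and 64 of 7376 by summed level, where smaller differences reach a given p. No comparison with pairs of like level was made, so nothing is read from the 2. For KANSL1L with RPE the share was 99.9% in both, and a difference was not detectable at the 1 and 3 counts of RPE (exact p = 1.00).

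Genes of families, complexes and pathways related to some of the members were read in lists. The lists include PAQR3, BMP2K, AP1G2 and RPE, but KANSL1L is not in the NSL list. Of the 19835 protein-coding genes in the table, whose median level was 1.86 CPM, 24.8% reached 10 counts in both libraries. Of 13 subunits of the clathrin adaptors AP-1 and AP-2, 4 reached this level, 2 were at 0 in both libraries and the median was 2.75 CPM. After AP1G2 came AP2A1, an alpha subunit of AP-2, with 30.8 ± 0.00448 CPM, and AP1G1, the paralogue of AP1G2, with 19.1 ± 1.70 CPM (SD, n = 2). AP1G1 has no gene over its exons on the other strand, while AP2A1 faces FUZ.

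Of 4 NAK kinases, 3 had at least 10 counts in each library, and the median was 36.9 CPM. STK16 led with 263 and 331 counts, opposite TUBA4A and GLB1L, followed by BMP2K and by AAK1, which held 14 and 17. Of 11 PAQR family genes, which include the adiponectin receptors, 4 had this many, and the median was 1.50 CPM, below that of protein-coding genes, whereas the medians of the adaptor and NAK lists were above it. PAQR4 followed PAQR3, with 336 and 408 counts opposite PKMYT1, and PAQR7 held 32 and 28. The receptors ADIPOR1 and ADIPOR2 held 1 and 0, and 0 and 4. Of the 11, 6 have an opposite-strand gene over their exons, and the 4 are among them. AAK1 of the NAK list reached 10 counts in each library with no such gene. The same share over all genes is not given here, so nothing is read from this count.

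The NSL complex contained 2 such genes of 9 and had a median of 5.72 CPM, also above that of protein-coding genes, with HCFC1, a chromatin-bound host cell factor, at 60 and 72 counts, PHF20 at 15 and 9 and KANSL1 at 11 and 12. Per kb of exon, KANSL1L held 205 and 319 counts and its paralogue KANSL1 held 0.462 and 0.504. Among pentose phosphate genes, TKT, the transketolase gene, held 552 and 701 counts with no gene over its exons on the other strand. TALDO1, the transaldolase gene, held 47 and 55, and RPIA was at 0. Of the listed genes named here, those with at least 10 counts in each library were tested between the libraries by the exact binomial test, and 0 passed or had an unadjusted p below 0.05. PHF20, ADIPOR1, ADIPOR2 and RPIA fell short of that count and were not tested.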

How the data were processed

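The data were 2 U2AF2 eCLIP libraries of HEL cells, biological replicates read as pairs of 100 bases, per the labels' protocols. The authors deposited raw counts per gene, as whole numbers, with no normalization. STAR 2.7.0f, cutadapt and the build GRCh38.p10 are named, per the submitters' processing notes; the counting step, strand setting, annotation release and treatment of PCR duplicates are not given in the sources used here. The 4 tallies that name no gene (98.3% of all reads in each library) entered neither the library sizes nor any test.

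Genes, exons and coordinates came from GENCODE 29 (GRCh38), which had a model for 58084 of 58347 identifiers (99.5%), 55720 with the same version number. Exons of all transcripts of a gene were merged. Introns under 20 bases were not counted as introns. Scaling factors, 1.01 and 0.987, were trimmed means of M values (edgeR 4.0.16, R 4.3.3) from the genes reaching 10 counts in both libraries; CPM uses these sizes per 1e+06. Because there was 1 group, the quasi-likelihood test of edgeR had no contrast. Instead an exact binomial test per gene and Fisher's exact test per pair were used (Python 3.11.15, scipy 1.17.1), with Benjamini-Hochberg adjustment at 0.05. Both were first tried on simulated counts that held counting error only. Those counts had no duplicates or spread between samples, so the trial cannot show how the tests behave where these are present. Alternatives were DESeq2 1.42.0 size factors, unscaled totals, other count minimums and overlaps, shares per kb and leaving out each library. Multimapping reads are outside all counts, and duplicates left in would make intervals too narrow. A floor is 3 counts of a library.

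The members and lists were chosen with earlier results of these data known. Genes named are the members, genes over their exons with at least 10 counts in either library, the neighbours in level of each first-named gene and the 3 highest members of each list; some listed genes and markers are not reported here. ADIPOR1, ADIPOR2, RPIA and the cell type markers were named after their values were seen.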

Additional observations from a re-analysis of the deposited data

How the results depend on the processing

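The 10 levels moved by less than 1 SD with DESeq2 size factors and with unscaled totals. Leaving out a library gives the level in the other, which with 2 libraries says nothing of stability; for RPE it was 0.992 to 2.25 CPM, against a mean of 1.62. The first-named gene held the larger share in all 5 pairs in each library alone and per kb of exon. Per kb of merged exon its share was 97.3% for PAQR3, 90.3% for AL135999.1, 98.7% for LENG9, 94.3% for LRRC24 and 99.8% for KANSL1L, so that LRRC24 passed 90% in both libraries on that scale and AL135999.1, at 89.9% and 90.7%, in 1 of them. The exons of both are shorter than those of their partners. The difference of KANSL1L between the libraries passed under every scaling and count minimum tried (adjusted p from 1.70e-05 to 0.00212), and none of the 8 other members tested passed under any of them. The count of genes differing between the libraries was 45, and 49 and 48 with DESeq2 size factors and unscaled totals. It was 71 with no filter on low counts and 62 with at least 50 counts in each library. The cause of these rises was not tested. With at least 50 counts in each library, 1 pair differed in its split in place of 3. Pairs with 1 gene at 90% or more numbered 2600, and 2791 to 2867 with 1 library left out. No paired analysis was possible because the 2 libraries form 1 group. RPE, at 1 and 3 counts, could not be tested at this depth.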
